A study of Mus musculus with 12 samples.

Results

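The 9 genes described here encode the NF-kB transcription factor subunits (Rela, Rel, Relb, Nfkb1 and Nfkb2) and inhibitors of the pathway (Nfkbia, Nfkbib, Nfkbiz and Tnfaip3). Members were chosen by gene symbol, and 9 of the 37756 gene models of the deposited expression table carry such a symbol. Whole mammary gland RNA of C57BL/6 mice was sequenced in their first lactation. JNK WT dams carried the Wap-Cre transgene alone, and JNK KO dams carried Wap-Cre together with LoxP-flanked alleles of Mapk8 (encodes JNK1) and Mapk9 (encodes JNK2), so that both groups express Cre. Glands were taken after 9 days of nursing (involution day 0) or 3 days after the pups were removed (involution day 3), with 3 libraries in each of the 4 groups and 12 in all. Wap-Cre acts in milk-secreting epithelium during lactation, so adipocytes, blood cells and stroma of the JNK KO glands keep both genes. Libraries are named by the numbers of their columns (3, 6 and 12 for JNK WT and 3, 4 and 6 for JNK KO glands on day 3), and the labels' replicate numbers cannot be matched to them. The study's figure legends give the replicates of the RNA sequencing as separate mice, so p-values measure the spread between mice of a group.

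NF-kB proteins form dimers that are held in the cytoplasm by IkB inhibitors until IkB kinases mark the inhibitors for destruction. The freed dimers enter the nucleus and switch on inflammatory genes, and also genes of their own brakes, which closes a feedback loop. In the mammary gland NF-kB is known as a regulator of alveolar growth and of the response to weaning and infection. JNK is a parallel stress kinase that many of the same receptors activate.

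Promoter windows from RefSeq (GRCm38.p6) were read for the NF-kB motif (kappaB), because feedback genes are known to be controlled through it. The 250 bases before each gene start were searched on both strands for 2 forms of it, GGGA and TTCC with any 2 bases between and GGG and TTTCC with any 2 bases between, which can overlap in a single match, and for the AP1 motif TGANTCA, bound by factors that JNK phosphorylates. The table holds windows for 6 of the 9 members (9 windows, since Nfkb2 has 3 starts and Tnfaip3 has 2). A kappaB match stood in 6 of the 9 windows, which belong to 4 genes (Nfkbia, Tnfaip3, Rel and Nfkb2), whereas 2.26% of the 32851 windows of all genes hold a match. AP1 matches stood in 1 window each of Tnfaip3 and Nfkb2, against 6.75% of all windows. The sequences below show each match in capitals with up to 10 bases on either side, 5′ to 3′ on the strand of the gene and cut at the gene start.
Nfkbia, kappaB: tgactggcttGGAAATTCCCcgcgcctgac
Tnfaip3, kappaB: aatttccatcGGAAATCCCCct
Rel, kappaB: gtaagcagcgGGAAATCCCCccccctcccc
Nfkb2, kappaB at the first start: ggggccgaaaGGGGCTTTCCc
Nfkb2, kappaB at the second start: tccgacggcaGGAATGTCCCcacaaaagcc
Nfkb2, kappaB at the third start: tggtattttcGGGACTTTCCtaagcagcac
Tnfaip3, AP1: aatgcccaggTGACTCAcgcggggaca
Nfkb2, AP1: agcccctgggTGAATCAgccgtgtcct

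The Nfkbia window (chr12:55492657-55492686, minus strand) and the Rel window (chr11:23771041-23771070, minus strand) lie upstream of the gene annotated in GENCODE M21. For Tnfaip3 the kappaB window (chr10:19015411-19015432, minus strand) lies in an intron of a longer transcript, and the AP1 window (chr10:19015530-19015556) overlaps an exon of it. The Nfkb2 windows on the plus strand are chr19:46304716-46304736 and chr19:46305695-46305724, which overlap annotated exons, and chr19:46305449-46305478 and chr19:46305475-46305501, which are intronic. Capitals that begin with GGAA are matches read on the opposite strand. The match of Tnfaip3 and the match of Rel are the same 10 letters, GGAAATCCCC. Rela and Nfkbib windows held none of the 3 motifs, which says only that these letters are not in those windows.

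Values are FPKM (fragments scaled for exon length and for the mapped fragments of the library), a level per length that allows genes to be set side by side. Differences are log2 changes of FPKM + 0.1, tested with limma over all genes with at least 0.5 FPKM in 3 or more libraries (14512 genes, with all 9 members among them), and a gene is called at a Benjamini-Hochberg adjusted p under 0.05. As deposited, most genes were higher on day 3. The median log2 change of all genes tested was 2.37 in JNK WT and 1.68 in JNK KO glands, with 13280 genes called higher and 194 called lower in the former. Milk genes held 57.4% to 77.3% of the FPKM sum in the 6 day 0 libraries, 1.61% to 6.14% in the JNK WT day 3 libraries and 8.84% to 39.1% in the JNK KO day 3 libraries. Each change is therefore also given after median ratio scaling, in which every library is divided by the median of its ratios to a reference library of geometric means. This brought the medians of all genes to 0.01 and 0.02, and of 13610 genes tested 2486 were called higher and 2393 lower in JNK WT glands. Epithelial markers were above 0 in every library, and no defining marker list was at 0. Mapk8 lay at 6.57 to 7.90 FPKM in JNK WT and 1.25 to 3.57 FPKM in JNK KO glands on day 3, with overlapping ranges on day 0 (1.95 to 2.65 and 0.965 to 2.78 FPKM). Mapk9 lay at 16.1 to 18.1 FPKM in JNK WT and 5.26 to 10.5 FPKM in JNK KO glands on day 3, and also overlapped on day 0 (2.48 to 10.2 and 4.33 to 8.78 FPKM). Neither gene passed the limma test between genotypes on either day, as deposited or scaled.

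Between day 0 and day 3, 9 of the 9 mRNAs rose in JNK WT glands and 9 of 9 in JNK KO glands, as did 91.5% and 80.0% of all genes tested, so these counts are near the background. The days did not overlap for 9 members in JNK WT glands (90.6% of genes) and for 7 in JNK KO glands (84.0%), where Nfkbia and Nfkbiz overlapped. The members spread widely around the median of all genes. Relb, Nfkb2, Rela, Nfkb1 and the inhibitor Nfkbib changed by more than the median gene in both genotypes and Nfkbia, Nfkbiz and Rel by less, while Tnfaip3 lay above it in JNK WT and just below it in JNK KO glands. With median ratio scaling 3 of 9 members rose in JNK WT glands (Relb, Nfkb2 and Rela, against 18.3% of all genes) and 1 of 9 in JNK KO glands (Relb, against 11.6%), and none fell (17.6% and 10.7% of genes fell). In bulk tissue, fewer cells of a type and less RNA per cell cannot be told apart.

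**Figure D1:**
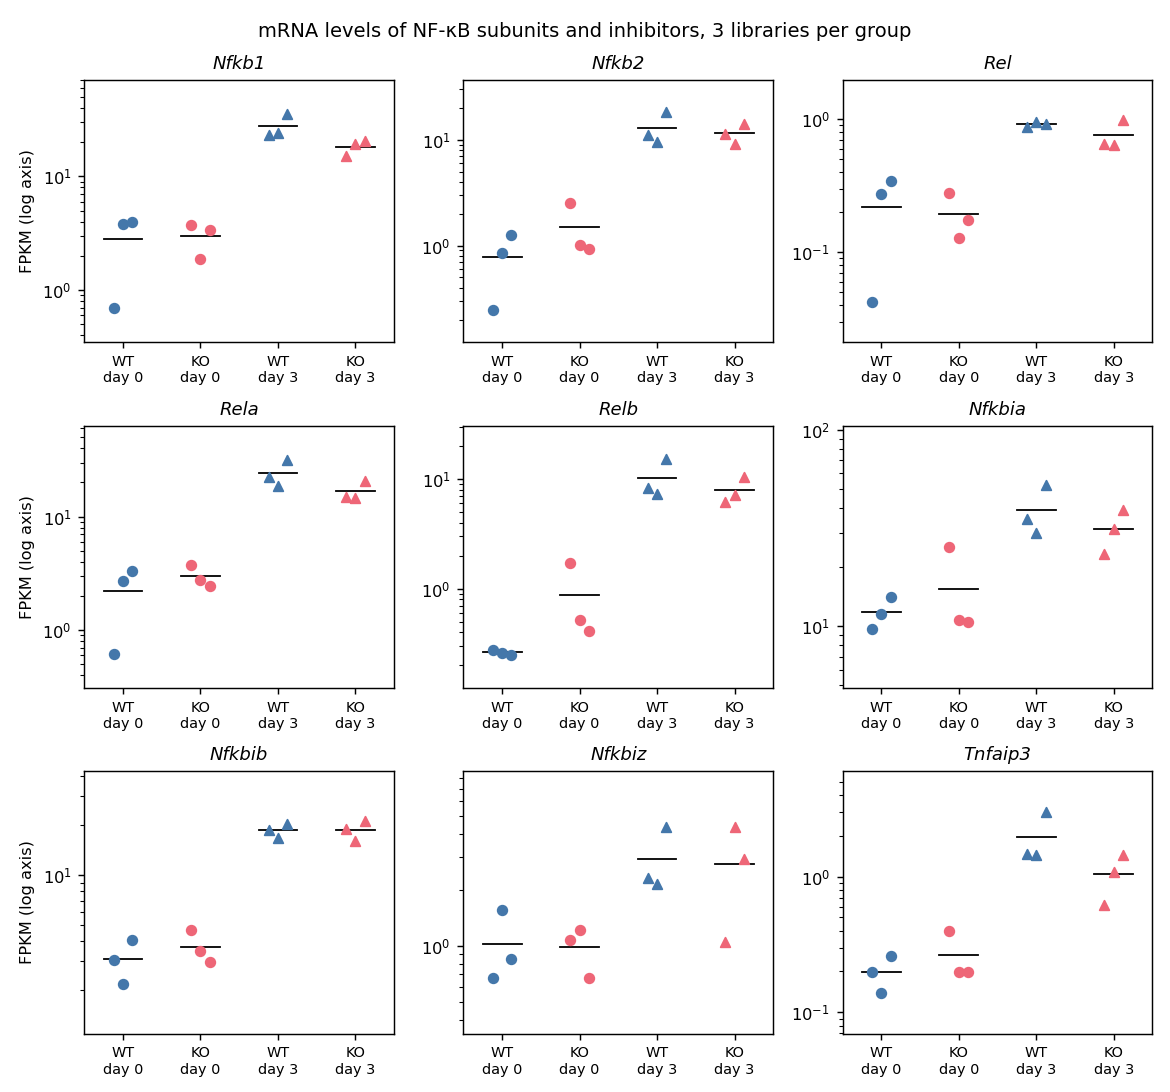
FPKM of the 9 members in each library on log axes, grouped by genotype and involution day, with circles for day 0, triangles for day 3 and a black line at the group mean. As deposited, the day 3 libraries of JNK WT glands lie above the day 0 libraries in all 9 panels, and JNK WT day 0 library 1 is the lowest of the 6 day 0 libraries for 6 members.

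Rela encodes p65, the subunit that carries the transactivation domain of the classical NF-kB dimer. The gene model spans chr19:5637483-5648130 on the plus strand. Its mRNA was at 0.617, 2.71 and 3.34 FPKM in JNK WT and 3.71, 2.78 and 2.46 FPKM in JNK KO glands on day 0. On day 3 the values were 22.2, 18.6 and 31.8 FPKM in JNK WT and 14.9, 14.7 and 20.6 FPKM in JNK KO glands, so that the days did not overlap in either genotype. The log2 change was 3.64 (standard error 0.49, limma adjusted p = 2.48e-05) in JNK WT and 2.45 (adjusted p = 7.62e-04, same standard error) in JNK KO glands. These changes are 1.27 and 0.78 above the median of all genes. Scaled by median ratios they were 1.21 (limma adjusted p = 0.0227) and 0.71 (adjusted p = 0.181).

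Nfkb1 encodes p105, the precursor of the p50 subunit that pairs with p65, and spans chr3:135584655-135691547 on the minus strand. On day 0 it was at 0.698, 3.82 and 3.94 FPKM in JNK WT and 3.71, 1.86 and 3.37 FPKM in JNK KO glands. The day 3 values were 23.1, 24.3 and 35.4 FPKM in JNK WT and 15.1, 19.2 and 20.4 FPKM in JNK KO glands. As deposited, each JNK KO library on day 3 lay below each JNK WT library of that day, as did 43.9% of genes. After median ratio scaling the day 3 ranges overlapped, at 9.64 to 12.7 in JNK WT and 9.98 to 11.0 in JNK KO glands. Nfkb1 rose by a log2 change of 3.55 (standard error 0.53, limma adjusted p = 5.37e-05) and 2.62 (adjusted p = 8.41e-04), and scaled by median ratios its changes were 1.11 (limma adjusted p = 0.0503) and 0.89 (adjusted p = 0.138).

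Rel encodes c-Rel, a subunit known chiefly from lymphocytes and myeloid cells, and spans chr11:23741514-23770970 on the minus strand. It was among the lowest members throughout, at 0.0422, 0.276 and 0.341 FPKM in JNK WT and 0.280, 0.129 and 0.175 FPKM in JNK KO glands on day 0. On day 3 it reached 0.874, 0.949 and 0.926 FPKM in JNK WT and 0.650, 0.643 and 0.994 FPKM in JNK KO glands. Neither group left the range below 1 FPKM. The log2 changes of 1.82 (standard error 0.42, limma adjusted p = 0.00131) and 1.56 (adjusted p = 0.00512) were smaller than those of the median gene, and after median ratio scaling they were -0.03 and 0.19, with limma adjusted p = 0.958 and 0.794.

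Relb encodes the subunit of the alternative NF-kB pathway that pairs with p52, and spans chr7:19606217-19629438 on the minus strand. In JNK WT glands on day 0 it was at 0.278, 0.261 and 0.249 FPKM, the tightest values of any member there. The JNK KO day 0 libraries held 1.71, 0.519 and 0.415 FPKM, all above the JNK WT ones (as for 4.05% of genes), with the highest in library 1. The scaled ranges overlapped. On day 3 Relb was at 8.26, 7.25 and 15.4 FPKM in JNK WT and 6.22, 7.10 and 10.5 FPKM in JNK KO glands. This was the member with the largest change. It rose by a log2 change of 4.76 (standard error 0.46, limma adjusted p = 3.48e-06) in JNK WT and 3.24 (adjusted p = 7.95e-05, same standard error) in JNK KO glands, above 97.6% and 95.1% of all genes tested. Relb also passed after median ratio scaling, at 2.52 (limma adjusted p = 0.00154) and 1.58 (adjusted p = 0.0259), and each scaled day 3 library lay above each scaled day 0 library of its genotype.

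Nfkb2 encodes p100, the precursor of p52 and an inhibitor of Relb dimers until it is processed. The gene model lies at chr19:46304737-46327156 on the plus strand, and its span also covers Psd on the opposite strand and a long noncoding RNA. Strand use in the counting is not given in the sources used here, so reads of these genes may not be told apart. Day 0 values were 0.245, 0.853 and 1.26 FPKM in JNK WT and 2.54, 1.004 and 0.931 FPKM in JNK KO glands. Day 3 values were 11.0, 9.48 and 18.4 FPKM in JNK WT and 11.2, 9.11 and 14.1 FPKM in JNK KO glands, with complete separation of the days in both genotypes. Nfkb2 rose by a log2 change of 4.04 (standard error 0.51, limma adjusted p = 1.65e-05) and 2.98 (standard error 0.51, adjusted p = 2.82e-04). Scaled by median ratios, the changes were 1.70 (limma adjusted p = 0.00971) and 1.28 (adjusted p = 0.0509).

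Nfkbia encodes IkB-alpha, the inhibitor that NF-kB itself rapidly induces, and spans chr12:55489411-55492647 on the minus strand. It was the most abundant member in each group. On day 0 it was at 9.70, 11.5 and 14.1 FPKM in JNK WT and 25.2, 10.7 and 10.5 FPKM in JNK KO glands, and on day 3 at 35.3, 29.8 and 52.6 FPKM in JNK WT and 23.2, 31.1 and 39.0 FPKM in JNK KO glands. JNK KO library 1 of day 0 reached the day 3 range, so the JNK KO days overlapped. As deposited, Nfkbia rose by a log2 change of 1.70 (standard error 0.36, limma adjusted p = 7.12e-04) and 1.10 (standard error 0.36, adjusted p = 0.0147), which is less than the median gene by 0.66 and 0.58. After median ratio scaling the direction turned, to -0.78 (limma adjusted p = 0.0640) in JNK WT and -0.66 (adjusted p = 0.141) in JNK KO glands. In scaled FPKM the JNK WT libraries held 31.6, 23.5 and 24.4 before weaning and 14.7, 12.8 and 18.8 after it. For JNK KO glands the scaled values were 46.7, 22.0 and 20.4 on day 0 and 16.9, 16.3 and 19.1 on day 3. The scaled days did not overlap in either genotype, with day 3 lower, yet the change did not pass the test. Leaving out JNK KO day 0 library 2 or 3, or library 6 of day 3, ended the call in JNK KO glands as deposited, at 0.90, 0.88 and 0.92 (limma adjusted p = 0.0642, 0.0629 and 0.0617).

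Nfkbib encodes IkB-beta, an inhibitor that is degraded and restored more slowly. Its model lies at chr7:28756174-28788665, where the gene is on the minus strand, and the span also covers Ccer2 and Sirt2 on the opposite strand. The annotated gene is shorter, at chr7:28758251-28767512. As for Nfkb2, reads of these genes may not be told apart, which limits the levels and ratios of Nfkbib given here. The mRNA was at 3.04, 2.18 and 4.05 FPKM in JNK WT and 4.63, 3.46 and 2.95 FPKM in JNK KO glands on day 0. On day 3 it was at 18.9, 16.9 and 20.3 FPKM in JNK WT and 18.9, 16.0 and 21.3 FPKM in JNK KO glands. The day 3 ranges of the genotypes nearly coincided. Nfkbib rose by 2.60 (standard error 0.27, limma adjusted p = 5.45e-06) and 2.33 (standard error 0.27, adjusted p = 2.65e-05) on the log2 scale, and after median ratio scaling the changes were 0.13 and 0.59, with limma adjusted p = 0.747 and 0.175.

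Nfkbiz encodes IkB-zeta, a nuclear IkB protein that acts with p50 to switch on some inflammatory genes and damps others. The gene spans chr16:55811375-55838899 on the minus strand. It was at 0.671, 1.56 and 0.844 FPKM in JNK WT and 1.08, 1.21 and 0.671 FPKM in JNK KO glands on day 0, and at 2.31, 2.16 and 4.35 FPKM in JNK WT and 1.04, 4.33 and 2.94 FPKM in JNK KO glands on day 3. JNK KO day 3 library 3 stayed within the day 0 range. Nfkbiz rose by a log2 change of 1.44 (standard error 0.50, limma adjusted p = 0.0158) and 1.23 (standard error 0.50, adjusted p = 0.0386) as deposited, and after median ratio scaling the values were -0.90 and -0.43 (limma adjusted p = 0.109 and 0.497), a turn of direction in both genotypes. These calls were the least secure of the 9. Without JNK WT day 3 library 12 the JNK WT change was 1.13 (limma adjusted p = 0.0694). With JNK KO day 0 library 1 or 3 left out, or JNK KO library 4 or 6 of day 3, the JNK KO change was 1.31, 0.9997, 0.81 and 1.09 (adjusted p = 0.0608, 0.126, 0.171 and 0.110).

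Tnfaip3 encodes A20, a ubiquitin-editing enzyme that shuts off signalling from TNF and Toll-like receptors, and spans chr10:19000910-19015657 on the minus strand. Levels on day 0 were 0.199, 0.139 and 0.261 FPKM in JNK WT and 0.396, 0.198 and 0.197 FPKM in JNK KO glands. On day 3 they were 1.46, 1.45 and 2.97 FPKM in JNK WT and 0.617, 1.08 and 1.45 FPKM in JNK KO glands. The highest JNK KO library, at 1.446 FPKM, lay just under the lowest JNK WT library, at 1.447 FPKM, so the genotypes did not overlap on day 3 by a margin far below the spread between libraries. Of all genes, 43.9% lay lower in JNK KO glands without overlap on day 3, and the scaled ranges of Tnfaip3 overlapped. Tnfaip3 rose by a log2 change of 2.72 (standard error 0.40, limma adjusted p = 5.04e-05) and 1.63 (standard error 0.40, adjusted p = 0.00295), and scaled by median ratios the changes were 0.63 and 0.18, with limma adjusted p = 0.192 and 0.764.

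**Figure D2:**
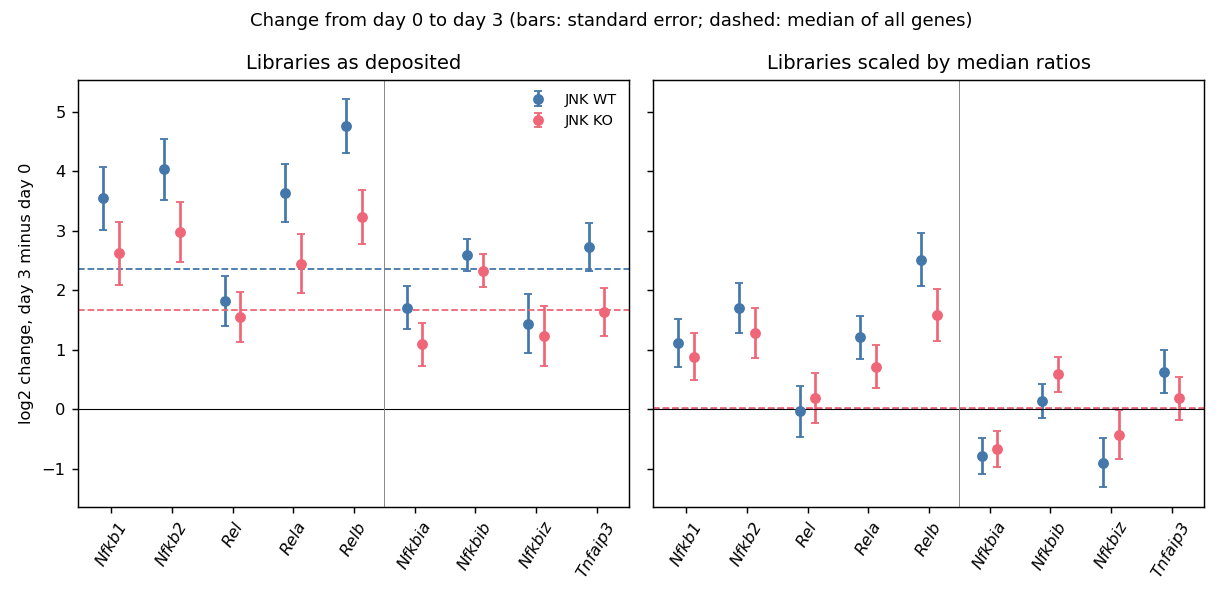
Log2 change from day 0 to day 3 of each member in JNK WT and JNK KO glands with its standard error from limma, for libraries as deposited and scaled by median ratios. Dashed lines mark the median of all genes tested, at 2.37 and 1.68 as deposited, and the scaled changes of Nfkbia and Nfkbiz lie below 0 in both genotypes, while that of Rel is -0.03 in JNK WT and 0.19 in JNK KO glands.

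By role, the median log2 change of the 5 subunits was 3.64 in JNK WT and 2.62 in JNK KO glands as deposited, and that of the 4 inhibitors was 2.15 and 1.43, beside 2.37 and 1.68 for all genes. Scaled by median ratios, the subunit medians were 1.21 and 0.89 and the inhibitor medians -0.32 and -0.12. The difference between the roles was not tested, and it did not hold for each gene. Rel lay below the median of all genes in both genotypes, whereas the inhibitor Nfkbib lay above it by 0.23 in JNK WT and 0.66 in JNK KO glands and Tnfaip3 by 0.35 in JNK WT glands. Without overlap between days, 4 members (Rela, Nfkb1, Relb and Nfkb2) lay higher on day 3 in scaled libraries of each genotype, against 25.5% and 25.6% of all genes, and Nfkbia lay lower, against 21.7% and 23.9%.

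The calls in scaled JNK KO glands rested on single libraries. The count of 1 became 4 without JNK WT day 0 library 1, 2 when JNK WT library 3 or JNK KO library 1 of day 0 was left out, and 0 when JNK KO day 0 library 2 or 3 or any JNK KO library of day 3 was left out. In scaled JNK WT glands the count of 3 ranged from 2 to 4 as each library was left out in turn.

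Ratios of members within a library do not depend on how libraries are scaled, and were used to compare inhibitors with the subunits they hold. The Nfkbia to Rela ratio was 15.7, 4.24 and 4.24 for JNK WT and 6.80, 3.86 and 4.29 for JNK KO glands on day 0. On day 3 it was 1.59, 1.603 and 1.66 for JNK WT and 1.56, 2.12 and 1.89 for JNK KO glands. Both genotypes had fewer Nfkbia transcripts per Rela transcript on day 3, with no overlap between days, and the 3 JNK WT libraries of day 3 were almost equal. The mean log2 difference was -2.02 in JNK WT (-1.39 without JNK WT day 0 library 1) and -1.39 in JNK KO glands, with an exact two-sided permutation p = 0.1 for each, the smallest that 3 against 3 libraries can give (0.333 when adjusted over the 20 ratio tests made). Of all other genes, 53.0% in JNK WT and 45.9% in JNK KO glands were also lower relative to Rela without overlap. Relative to Nfkbia, 6 of the 8 other members in JNK WT and 7 of 8 in JNK KO glands were higher on day 3 without overlap, against 45.6% and 41.3% of all genes. Nfkbiz was in neither count and Rel was not in the JNK WT count.

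The Tnfaip3 to Nfkbia ratio, which sets the A20 transcript against that of IkB-alpha, was 0.0206, 0.0121 and 0.0185 for JNK WT and 0.0157, 0.0184 and 0.0187 for JNK KO glands on day 0. It was 0.0414, 0.0485 and 0.0565 for JNK WT and 0.0266, 0.0347 and 0.0370 for JNK KO glands on day 3. The ratio was higher on day 3 in both genotypes and lower in JNK KO than in JNK WT glands on that day, with no overlap in any of these comparisons. The log2 differences were 1.54, 0.89 and -0.58, each with an exact permutation p = 0.1 (0.333 adjusted over the 20 tests). With 0.1 FPKM added before the ratio was taken, the differences between days were 1.02 and 0.54, since Tnfaip3 was near that level on day 0. On day 3, 5 of the 8 other members (Nfkbia, Nfkbib, Nfkbiz, Nfkb2 and Relb) were higher relative to Tnfaip3 in JNK KO glands without overlap, against 20.9% of all genes.

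Among the subunits, the Nfkb2 to Nfkb1 ratio compares the precursors of p52 and p50. It was 0.351, 0.223 and 0.320 in JNK WT glands on day 0 and 0.475, 0.390 and 0.521 on day 3, without overlap (log2 difference 0.65, exact permutation p = 0.1, adjusted 0.333). In JNK KO glands the values of 0.686, 0.538 and 0.276 on day 0 and 0.741, 0.474 and 0.691 on day 3 overlapped (log2 difference 0.42, exact permutation p = 0.5, adjusted 0.714). Ratios of Relb to Rela overlapped between days in both genotypes, because JNK WT day 0 library 1 (0.452) and JNK KO day 0 library 1 (0.460) already lay at the day 3 level of 0.373 to 0.508. The other 4 libraries of day 0 held 0.0747 to 0.187. Ratios of Nfkbiz to Nfkbia overlapped in all 4 comparisons, at 0.0428 to 0.139 over the 12 libraries.

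**Figure D3:**
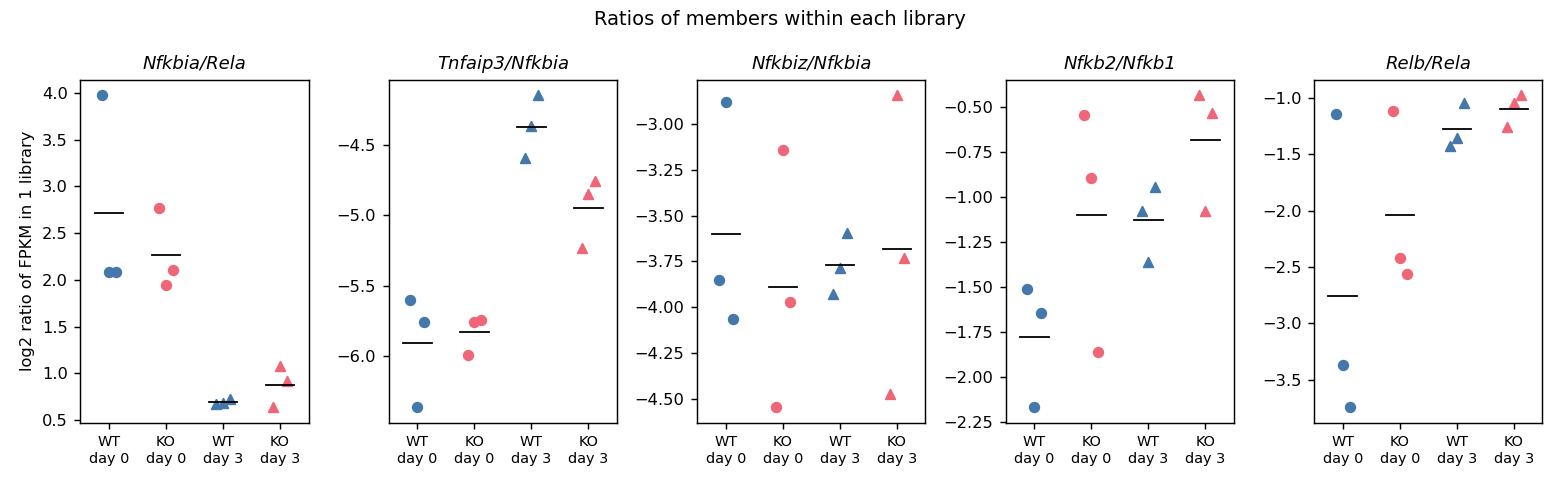
Log2 ratios of FPKM between members within each library, with circles for day 0, triangles for day 3 and a black line at the mean of the 3 libraries. The Nfkbia to Rela ratio is lower and the Tnfaip3 to Nfkbia ratio higher on day 3 in both genotypes, whereas the Nfkbiz to Nfkbia and Relb to Rela ratios overlap between days.

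Between the genotypes, 0 of 9 members passed the limma test on either day. On day 0, 0.00689% of genes were called in each direction, and on day 3 0.544% were called higher with JNK deletion and 5.62% lower. After median ratio scaling 0 of 9 passed on either day as well, beside 0.00735% of genes in each direction on day 0 and 0.367% higher and 0.118% lower on day 3. At an unadjusted p under 0.05 Relb was the single member on day 0 (3.10% of genes), and no member had such a p on day 3 (24.9% of genes). No other tool was run. Relb on day 0 differed by 1.20 (95% interval 0.20 to 2.19, limma adjusted p = 0.810) as deposited and by 1.11 (95% interval 0.14 to 2.08, adjusted p = 0.632) after median ratio scaling. It was higher in JNK KO glands without overlap as deposited, as were 4.05% of genes, and the scaled ranges overlapped. JNK KO day 0 library 1 carried much of this value, since the difference was 0.64 (limma adjusted p = 0.933) without it. For the other 8 members on day 0 the log2 differences were between -0.01 (Nfkbiz) and 0.92 (Nfkb2), and each 95% interval held 0.

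On day 3 the log2 differences as deposited ran from -0.83 (Tnfaip3, 95% interval -1.72 to 0.05, limma adjusted p = 0.220) to -0.00 (Nfkbib, 95% interval -0.60 to 0.59). All 9 were at or below 0 and the median of all genes was at -0.48. Nfkb1 and Tnfaip3 lay below the JNK WT range without overlap, against 43.9% of genes. After median ratio scaling 6 members had positive differences and Tnfaip3 (-0.34, 95% interval -1.13 to 0.45), Nfkb1 (-0.07) and Rela (-0.00) did not. Scaled Nfkbib lay above the JNK WT range in all 3 JNK KO libraries (log2 difference 0.51, 95% interval -0.14 to 1.15), as did 17.7% of genes. The scaled intervals of Nfkb2, Rel, Relb, Nfkbib and Nfkbiz reach above a log2 difference of 1 and that of Tnfaip3 below -1, so differences of that size lie within what 3 libraries a group leave possible.

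The difference between the changes of the genotypes was tested as an interaction. It was negative as deposited for all 9 members, from -0.21 (Nfkbiz) to -1.53 (Relb), beside a median of -0.67 for all genes, and 0 of 9 passed (0.00689% of genes passed in each direction). Relb alone had an unadjusted p under 0.05 (18.6% of genes), with a limma adjusted p = 0.241, and its interaction was -0.97 (adjusted p = 0.414) without JNK KO day 0 library 1. Scaled by median ratios the interaction of Relb was -0.93 (95% interval -2.31 to 0.44, limma adjusted p = 0.538), and those of Rel, Nfkbia, Nfkbib and Nfkbiz were positive, at 0.12 to 0.47. None passed in scaled libraries (0.00735% of genes in each direction), and none had an unadjusted p under 0.05 (12.8% of genes).

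**Figure D4:**
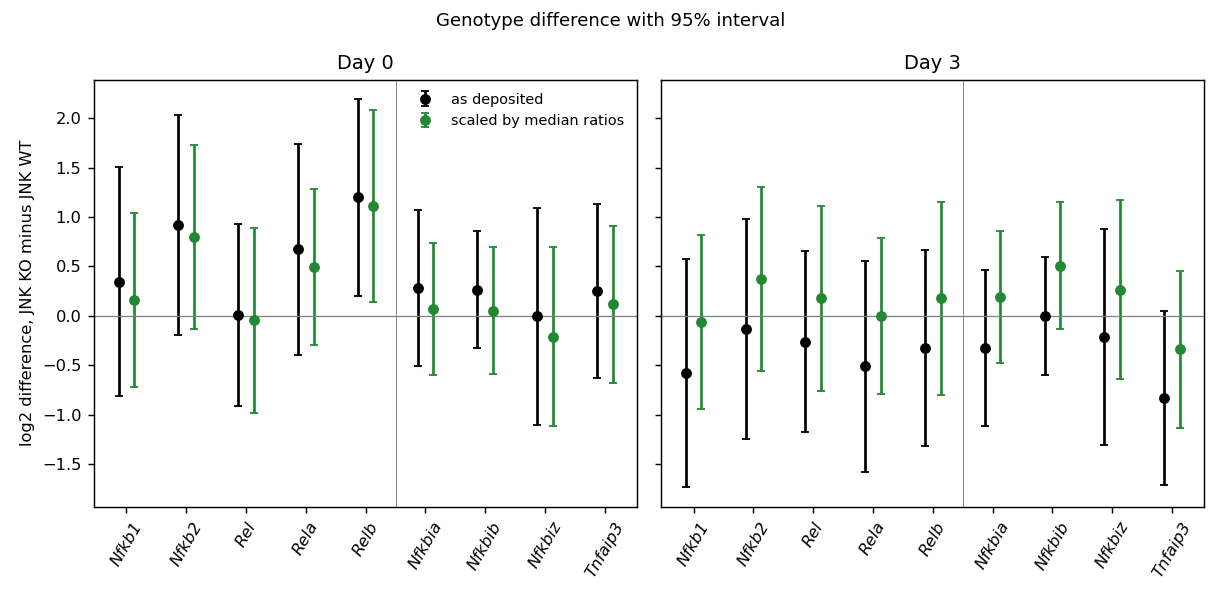
Log2 difference between JNK KO and JNK WT glands for each member on day 0 and day 3 with the 95% interval from limma, as deposited and scaled by median ratios. The intervals of Relb on day 0 lie above 0 (0.20 to 2.19 as deposited) and every other interval holds 0, with day 3 differences of Rel, Relb, Nfkb2, Nfkbia, Nfkbib and Nfkbiz on opposite sides of 0 in the 2 scalings.

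Single libraries held the extreme value of several members together, and some were also extreme over all genes. The factor by which median ratio scaling divides a library was 0.307 for JNK WT day 0 library 1. It was 0.488 to 0.579 for the other day 0 libraries, with JNK KO library 1 at 0.540. On day 3 it was highest for JNK WT library 12 (2.80) and lowest for JNK KO library 3 (1.38). The share of all genes with their extreme in the same library was not counted. As deposited, JNK WT day 0 library 1 had the lowest value of the 6 day 0 libraries for Nfkb1, Nfkb2, Rel, Rela, Nfkbia and Nfkbiz, and JNK KO day 0 library 1 had the highest for Nfkb2, Rela, Relb, Nfkbia, Nfkbib and Tnfaip3. Of 5 neutrophil markers S100a8 stood out in that JNK KO library, at 4.745 FPKM against 0.0886 to 0.458 FPKM in the other 5 day 0 libraries. S100a9 (0.581 FPKM) was matched by JNK WT library 1 (0.583 FPKM), and Csf3r (0.138 FPKM) lay below JNK KO library 3 (0.153 FPKM). On day 3, JNK WT library 12 was the highest for 7 members as deposited (all but Rel and Nfkbib), and its summed macrophage markers were also the highest, at 1022 FPKM. So were its summed leukocyte, lymphocyte, adipocyte, endothelial and fibroblast markers, but not its epithelial, neutrophil or skeletal muscle markers. JNK KO library 3, in which milk genes held 39.1% of the FPKM sum, was the lowest for 5 members as deposited. After median ratio scaling, JNK WT day 0 library 1 was the lowest for 4 members and the highest for 1, and JNK KO day 0 library 1 was the highest for 5. Scaled JNK WT day 3 library 12 was the highest for 4 and the lowest for 1. Scaled JNK KO day 3 library 3 was the highest for 2 and the lowest for 2. The part of these features in the members' values was not tested.

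In order of level, Nfkbia stood first in all 4 groups, at 11.8 ± 2.24, 15.5 ± 8.42, 39.2 ± 11.9 and 31.1 ± 7.91 FPKM (mean ± SD, n = 3) in JNK WT day 0, JNK KO day 0, JNK WT day 3 and JNK KO day 3 glands. Its range did not overlap that of the next member except in JNK WT glands on day 3, where Nfkb1 followed at 27.6 ± 6.77 FPKM. Nfkbib, Nfkb1 and Rela filled the next 3 places in all 4 groups, and neighbours in the order overlapped. In JNK WT glands on day 3 Nfkb1 lay above Nfkbib in every library. On day 3 Nfkb2 and then Relb followed in both genotypes and overlapped each other, and Relb did not overlap Nfkbiz below it. Nfkbiz, Tnfaip3 and Rel closed the order on day 3, with Tnfaip3 at 1.96 ± 0.878 and 1.05 ± 0.416 FPKM and Rel at 0.916 ± 0.0384 and 0.762 ± 0.201 FPKM.

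Genes whose scaled and centred log2 levels ran closest to those of a member over the 12 libraries were found by the mean absolute difference. Trim8 was closest to Nfkb2 (0.13), Smarcd1 to Rela (0.12), Serpinb9 to Tnfaip3 (0.13), Dpysl2 to Nfkb1 (0.15) and Rpl28 to Nfkbib (0.15). Relb had no such close neighbour, with Rac2, a leukocyte GTPase, at 0.28 and Cd180, a Toll-like receptor relative of B cells and macrophages, at 0.31. Nfkbia was nearest to Dtwd1 (0.17), Nfkbiz to Cep112 (0.19) and Rel to Gm6158 (0.14). The second genes were Sbno2 for Nfkb2, Pls3 for Rela, Traf3ip1 for Tnfaip3, Sptan1 for Nfkb1, Pitpna for Nfkbib, Apol10b for Nfkbia, Rccd1 for Nfkbiz and Zkscan7 for Rel. These likenesses are a description over libraries that share the 4 groups.

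Other genes of the pathway were read from lists of upstream signalling and of targets. Bcl3, Nfkbie and Nfkbid, the other IkB proteins, rose in both genotypes (3 of 3, beside 91.5% and 80.0% of all genes). Bcl3, a nuclear partner of p50 and p52, was at 1.22 ± 0.873 FPKM on day 0 and 16.0 ± 4.92 FPKM on day 3 in JNK WT glands (n = 3). After median ratio scaling the log2 change of Nfkbie, which encodes IkB-epsilon, still passed, at 1.24 (limma adjusted p = 0.0443) in JNK WT and 1.82 (adjusted p = 0.0123) in JNK KO glands. Bcl3 did not pass after scaling, at 1.35 and 1.10. The range of Nfkbie in JNK WT glands was 0.160 to 0.179 FPKM on day 0 and 1.72 to 4.79 FPKM on day 3.

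Of 17 IkB kinase subunits and upstream kinases, 17 rose in JNK WT and 15 in JNK KO glands as deposited, beside 91.5% and 80.0% of all genes. After scaling 4 were higher in each genotype (18.3% and 11.6% of all genes), and 6 and 4 were lower (17.6% and 10.7%). Their median log2 changes as deposited, 1.92 and 1.54, lay below those of all genes (2.37 and 1.68). Map3k8, the kinase held by the p105 protein, was at 0.105 ± 0.0343 FPKM on day 0 and 3.49 ± 1.49 FPKM on day 3 in JNK WT glands and 0.137 ± 0.0480 and 2.25 ± 1.73 FPKM in JNK KO glands (n = 3). Its scaled log2 changes of 2.08 (limma adjusted p = 0.00614) and 1.70 (adjusted p = 0.0248) passed the test. Map3k14, which encodes the NIK kinase that drives p100 processing, rose by 3.59 in JNK WT and 2.38 in JNK KO glands as deposited, and also passed when scaled, at 1.44 (limma adjusted p = 8.57e-04) and 0.85 (adjusted p = 0.0222). Irak3, an inhibitor of Toll-like receptor signalling, rose by 3.65 and 2.55 and also passed when scaled, at 1.43 and 0.94, in JNK WT and JNK KO glands. Irak4, which encodes a kinase of the same receptors, rose by 2.96 and 2.38 and passed when scaled, at 0.55 and 0.68. These kinases were picked by the size of their change as deposited, where most genes rose. Chuk, Ikbkg and Ikbkb, which encode IkB kinase subunits, were named after their values were seen. Scaled Chuk was at -1.81 (limma adjusted p = 1.01e-04) in JNK WT and -1.05 (adjusted p = 0.00373) in JNK KO glands. Scaled Ikbkg was at -1.01 (limma adjusted p = 0.00490) and -0.38 (adjusted p = 0.245), and Ikbkb at 0.11 and 0.45 (adjusted p = 0.635 and 0.0814).

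Of 11 adaptors, 10 rose in JNK WT glands, whereas for JNK KO glands 8 rose and 1 fell, with medians of 2.11 and 1.43 (2.37 and 1.68 over all genes, of which 91.5% and 80.0% rose). Scaled, the calls were 1 up and 2 down for JNK WT and 2 up and 1 down for JNK KO glands, against 18.3% up and 17.6% down and 11.6% up and 10.7% down over all genes. Myd88, the adaptor of Toll-like and IL-1 receptors, rose from 2.78 ± 0.805 to 27.1 ± 8.89 FPKM in JNK WT and from 3.33 ± 0.735 to 42.3 ± 11.1 FPKM in JNK KO glands (n = 3). Its scaled log2 change was 0.77 (limma adjusted p = 0.0666) in JNK WT and 1.87 (adjusted p = 0.00151) in JNK KO glands, and no adaptor passed the interaction test. Tradd, the adaptor of TNF receptor 1, rose by 3.47 and 3.05 and passed when scaled, at 1.09 and 1.38. Traf1, a TRAF protein that NF-kB induces and that was named after its values were seen, fell by 0.66 on the log2 scale in JNK KO glands (limma adjusted p = 0.0385), had a change of 0.31 (adjusted p = 0.281) in JNK WT glands, and was lower in both after scaling, at -2.36 in JNK KO and -2.13 in JNK WT glands. Birc3, which encodes a ubiquitin ligase of TNF receptor complexes, rose by 3.00 in JNK WT and 2.13 in JNK KO glands and was at 0.57 and 0.40 scaled (limma adjusted p = 0.124 and 0.332). Traf5 rose by 2.76 and 2.24 and was at 0.61 and 0.84 scaled (limma adjusted p = 0.192 and 0.109).

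All 14 ubiquitin editors rose in JNK WT and 12 in JNK KO glands as deposited, beside 91.5% and 80.0% of all genes. Of the 13 tested after scaling, 2 were higher and 2 lower in each genotype, against 18.3% and 17.6% of all genes for JNK WT and 11.6% and 10.7% for JNK KO glands. Their medians as deposited were 2.43 and 1.99, near those of all genes (2.37 and 1.68). Tnip1, a partner of A20, rose by 3.35 in JNK WT and 2.45 in JNK KO glands, and scaled it was at 0.94 (limma adjusted p = 0.0213) and 0.75 (adjusted p = 0.0732). Zc3h12a, which encodes an RNase that degrades inflammatory mRNAs, rose by 3.21 and 2.07 and was at 0.98 and 0.43 scaled (limma adjusted p = 0.0511 and 0.424). N4bp1 rose by 3.42 and 2.01 and was at 1.09 and 0.29 scaled (limma adjusted p = 0.0860 and 0.699). Otulin, a deubiquitinase of linear chains, rose by 3.20 in JNK WT and 2.46 in JNK KO glands and passed in both when scaled, at 0.78 and 0.74. Tnip2 rose by 3.00 and 2.47 and was at 0.60 (limma adjusted p = 0.0763) and 0.78 (adjusted p = 0.0414) scaled. Tnip3 rose by 2.24 and 2.50 from near 0.

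Ligands of the pathway were low. Of 10 listed, 6 passed the filter on low values and each rose in both genotypes as deposited (91.5% and 80.0% of all genes), with medians of 2.25 and 1.99. After scaling 3 passed the filter, with medians of 0.20 and 0.66. Tnf was at 0.0243 ± 0.0258 FPKM on day 0 and 0.730 ± 0.294 FPKM on day 3 in JNK WT glands, and 0.0256 ± 0.0443 and 0.460 ± 0.333 FPKM in JNK KO glands (n = 3). Il1b reached 1.43 ± 0.808 FPKM in JNK WT and 1.89 ± 0.782 FPKM in JNK KO glands on day 3, and Il1a 1.46 ± 0.715 and 0.516 ± 0.253 FPKM. Tnfsf13b, a B cell survival factor that acts through the alternative pathway, rose by 2.22 in JNK WT and 2.24 in JNK KO glands and was at 0.20 and 0.87 scaled (limma adjusted p = 0.751 and 0.190).

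Of 13 receptors tested, 12 rose in JNK WT and 13 in JNK KO glands (91.5% and 80.0% of all genes), with medians of 2.84 and 2.55 beside 2.37 and 1.68 over all genes. After scaling 4 and 5 were higher (18.3% and 11.6% of all genes), and 3 were lower in JNK WT glands (17.6%). Tnfrsf1b, which encodes TNF receptor 2, rose from 0.170 ± 0.0737 to 8.60 ± 4.57 FPKM in JNK WT and from 0.317 ± 0.149 to 3.96 ± 1.76 FPKM in JNK KO glands (n = 3). Its scaled log2 changes were 2.84 (limma adjusted p = 3.04e-04) and 1.71 (adjusted p = 0.00848). Tnfrsf12a, the receptor for TWEAK, was at 32.3 ± 1.83 FPKM in JNK KO and 26.6 ± 2.62 FPKM in JNK WT glands on day 3, and its scaled changes were 2.34 (limma adjusted p = 9.02e-04) and 0.996 (adjusted p = 0.0436). Tlr1 rose by 3.84 in JNK WT and 3.10 in JNK KO glands and by 1.87 and 1.83 scaled (limma adjusted p = 0.0105 and 0.0178). Cd14, the lipopolysaccharide co-receptor, rose most, by 6.84 and 5.18, and also passed when scaled, at 4.34 and 3.42.

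Of 20 target genes tested, 18 rose in JNK WT glands, whereas for JNK KO glands 17 rose and 1 (Traf1) fell, beside 91.5% and 80.0% of all genes that rose. The medians were 3.17 and 2.49 (2.37 and 1.68 over all genes). Of 19 tested after scaling, 6 and 5 were higher (18.3% and 11.6% of all genes) and 3 and 2 lower (17.6% and 10.7%). Icam1, an adhesion molecule for leukocytes, rose from 0.162 ± 0.141 to 6.92 ± 4.72 FPKM in JNK WT and from 0.256 ± 0.0793 to 3.97 ± 1.26 FPKM in JNK KO glands (n = 3), with scaled log2 changes of 2.74 (limma adjusted p = 8.69e-04) and 1.97 (adjusted p = 0.00851). Vcam1, an adhesion molecule of inflamed endothelium, was at 19.2 to 34.8 FPKM in the JNK WT and 1.28 to 8.48 FPKM in the JNK KO libraries of day 3, which gave a log2 difference of -2.45 (limma adjusted p = 0.0387) as deposited and -1.92 (adjusted p = 0.109) scaled. Mmp9, a gelatinase of neutrophils and macrophages, was at 2.18 to 5.06 FPKM in JNK WT and 0.373 to 1.12 FPKM in JNK KO glands on that day, at -2.14 (adjusted p = 0.0257) as deposited and -1.56 (adjusted p = 0.147) scaled. Lcn2, an iron-siderophore binding protein of the innate response, was at 5002 ± 533 FPKM in JNK WT and 10970 ± 1698 FPKM in JNK KO glands on day 3 (n = 3), and its scaled changes from day 0 of 2.29 and 3.11 both passed. Ccl2, a monocyte chemokine, rose by 3.87 in JNK WT and 5.05 in JNK KO glands and by 1.83 and 3.86 scaled (limma adjusted p = 0.0388 and 0.00140). Apart from Vcam1, Mmp9, Cd14 (lower) and Saa3 (higher, an acute phase gene), no gene of these lists passed between genotypes on day 3, and none of these 4 passed after scaling. Cd14 was among the 13 receptors tested, and Vcam1, Mmp9 and Saa3 were among the 20 targets. Over all genes, 5.62% were called lower and 0.544% higher with JNK deletion on day 3.

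Cell type markers moved with the days in the same libraries. After median ratio scaling, when 18.3% and 11.6% of all genes rose, 6 of 6 macrophage markers rose in both genotypes, with median log2 changes of 2.50 and 2.02, and 3 of 3 leukocyte markers rose, with medians of 1.96 and 1.65. Epithelial markers rose as well, 5 of 8 in each genotype (medians 0.98 and 1.52). Of fibroblast markers 6 of 6 rose in JNK WT and 1 of 6 in JNK KO glands (medians 1.83 and 1.02), and of neutrophil markers tested 2 of 3 rose in each. In JNK WT glands 3 of 5 adipocyte, 2 of 4 endothelial and 1 of 4 lymphocyte markers also rose (medians 1.69, 1.24 and 0.46). None of these markers was called in JNK KO glands, where the medians were 0.11, 0.39 and 0.75, so the lymphocyte median was higher than in JNK WT glands. The summed macrophage markers as deposited were at 12.8 to 33.5 FPKM in JNK WT and 12.1 to 28.1 FPKM in JNK KO glands on day 0, and at 422 to 1022 and 129 to 368 FPKM on day 3, so that the sums of the genotypes did not overlap on day 3, when 43.9% of all genes lay lower in JNK KO glands without overlap. Lyz2 made up most of that sum (298.6 to 743 and 83.7 to 267.5 FPKM), and Adgre1, Mrc1 and Itgam overlapped between genotypes. Of the 6 macrophage markers, 0 passed the limma test between genotypes on day 3, as deposited or scaled. Their median log2 differences were -0.855 as deposited and -0.34 scaled, beside -0.48 and 0.03 for all genes. Summed neutrophil markers (5 genes) were at 20.6 to 26.3 FPKM in JNK WT and 118 to 378 FPKM in JNK KO glands on day 3, nearly all of it S100a8 in the latter (117 to 371 FPKM). Csf3r went the other way, at 2.62 to 4.66 FPKM in JNK WT and 0.883 to 2.39 FPKM in JNK KO glands, and S100a9, Cxcr2 and Retnlg overlapped, so the list has no common direction between genotypes. Summed lymphocyte markers (9 genes) were at 10.2 to 16.3 and 2.59 to 7.42 FPKM. Adipocyte markers (5 genes) lay at 3238 to 7082 and 960 to 3181 FPKM and skeletal muscle markers (5 genes in the table) at 402 to 6505 and 1.57 to 100 FPKM on that day. All these sums are as deposited. As deposited, 5.62% of all genes were called lower in JNK KO glands on day 3. So were 1 of 6 lymphocyte, 2 of 5 adipocyte, 1 of 6 fibroblast and 5 of 5 skeletal muscle markers tested. Of neutrophil markers tested, 1 of 3 was called higher (0.544% of all genes). After median ratio scaling 0 of 4 lymphocyte, 0 of 5 adipocyte, 0 of 6 fibroblast, 0 of 5 skeletal muscle and 0 of 3 neutrophil markers were called. Epithelial markers (8 genes) overlapped between genotypes on day 3, at 999 to 1182 and 768 to 1325 FPKM. No listed marker was at 0 in all libraries of a group. The part of these cell types in the changes of Relb, Nfkb2, Rela, Nfkb1 and the other members was not tested.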

How the data were processed

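Per the study's methods and the submitters' processing notes, the authors trimmed paired reads (Trimmomatic), aligned them to GRCm38 (TopHat2 2.0.14 running Bowtie2) and estimated FPKM in Cufflinks 2.2.1. The deposited FPKM were not scaled further between libraries, and they carry no counts, so the depth of each library is unknown and no count test was run. Columns of the authors' own Cuffdiff comparisons (fold changes, p-values and q-values) were not used. Log2(FPKM + 0.1) of genes that reached 0.5 FPKM in 3 or more libraries was fitted with limma 3.58.1 in R 4.3.3 (4 group means, mean-variance trend, 8 residual and 4.03 prior degrees of freedom, two-sided), with Benjamini-Hochberg adjustment over all genes. The fit was tested on simulated data for the day 3 genotype comparison. It recovered 8% of log2 differences of 1, 58% of 2, 82.8% of 3 and 89.6% of 4, and 4.48% of its calls were false. Most simulated differences of 1 were therefore missed. The simulated noise was drawn for each gene on its own, without shifts shared by a library, and few genes were given a difference. In the data as deposited the median gene differed by -0.48 between genotypes on day 3, so these rates may not hold there. Alternatives varied the threshold, library weights, the trend, which groups were fitted, scaling, filter and pseudocount, and left out each library in turn. Further alternatives with scaled libraries were chosen after seeing the data. Members and lists were chosen with earlier results of these data known. Named genes are the 9 members, up to 3 called genes per pathway list and comparison with the largest change, the 2 genes closest to each member, and Mapk8 and Mapk9. Genes said above to be named after their values were seen were added to these. The protein sequence motifs planned were not searched here. Figures were drawn with matplotlib 3.10.9.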

Additional observations from a re-analysis of the deposited data

How the results depend on the processing

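No paired analysis was possible because the columns carry none of the replicate numbers of the labels. The count of members that rose was 3, 4 and 1 for JNK WT and 1, 2 and 1 for JNK KO glands under median ratio, 75th percentile and milk-free sum scaling (the FPKM sum without 14 milk genes). In scaled JNK KO glands it was 2 with a pseudocount of 1, 0 with no filter and 0 to 4 with a library left out, against 7 to 9 as deposited (8 to 9 in JNK WT glands, and 2 to 4 scaled). Signs turned as follows, in the order median ratio, 75th percentile and milk-free sum. For the change between days in JNK WT glands, Rel took -0.0348, -0.0428 and -0.26, Nfkbia -0.78, -0.80 and -0.92, and Nfkbiz -0.90, -0.92 and -1.04. In JNK KO glands Nfkbia took -0.66, -0.65 and -0.47 and Nfkbiz -0.43, -0.41 and -0.25. Between genotypes on day 3, Rel took 0.18, 0.19 and 0.20, Nfkbia 0.19, 0.21 and 0.21, Nfkbiz 0.26, 0.28 and 0.28, Nfkb2 0.37, 0.39 and 0.39, Relb 0.18, 0.19 and 0.20, Nfkbib 0.51, 0.52 and 0.52 (from -0.0025), and Rela 0.0176 and 0.0182 under the last 2. Interactions of Rel took 0.22, 0.24 and 0.60, Nfkbia 0.12, 0.15 and 0.45, Nfkbiz 0.47, 0.50 and 0.79, and Nfkbib 0.45, 0.48 and 0.78, and that of Nfkb1 took 0.11 under the last. On day 0 the genotype difference of Rel took -0.0466, -0.051 and -0.40, and under the milk-free sum Tnfaip3 took -0.13, Nfkbia -0.24, Nfkb1 -0.16 and Nfkbib -0.25. A pseudocount of 1 gave -0.0234 for Rel on day 0. Library weights gave -0.51 for Rel, 0.13 for Nfkbiz and -0.37 for Nfkb1 on day 0, 0.58 for Nfkbiz on day 3, and interactions of 0.22 for Rel, 0.44 for Nfkbiz and 0.0381 for Nfkb1. With a library left out, the day 0 differences ran from -0.50 to 0.32 for Rel, -0.0327 to 1.10 for Rela, -0.43 to 0.74 for Nfkb1, -0.24 to 0.31 for Nfkbiz and -0.13 to 0.50 for Nfkbia. Those on day 3 ran from -0.63 to 0.34 for Nfkbiz, -0.33 to 0.15 for Nfkb2 and -0.0995 to 0.11 for Nfkbib, and the interactions from -0.58 to 0.24 for Rel and -0.63 to 0.35 for Nfkbiz. None of these genotype values passed the test, and the cause of the turns was not tested. With no filter on low values Nfkbiz in JNK KO glands lost its call (limma adjusted p = 0.0668). The other settings changed no count by over 1.5 times. Depth per library is unknown, and 3 libraries a group limit what can be called.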
